A study of Mus musculus with 14 samples.

Results

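The genes described here encode the constitutive proteasome, the protease complex that degrades ubiquitin-tagged proteins in every cell. They were taken as all probe sets annotated to a single gene whose symbol is Psma, Psmb, Psmc, Psmd or Psme followed by a number, without the immunoproteasome and thymoproteasome subunits Psmb8, Psmb9, Psmb10 and Psmb11. This gave 71 probe sets of 38 genes, out of 22690 probe sets and 12394 gene symbols on the array. A filter that left out the 40% of probe sets with the lowest mean signal kept 58 of the 71 probe sets and 37 of the 38 genes. The gene below it was Psma8, the alpha subunit of the testis proteasome, whose probe set had signals of 2.82 to 16.5 over the 14 arrays. The other 12 probe sets left out belonged to genes that another probe set measured.

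RNA was measured in whole thymus of female C57BL/6 mice on 14 Affymetrix arrays, each holding a pool of RNA from 3 mice. All mice, the controls included, had been ovariectomized at 26 days of age and moved to a phytoestrogen-free AIN-93G diet, and treatments began at 30 days of age. The groups, each with 2 arrays, were control mice at day 0, which received no treatment; mice injected subcutaneously each day with 125 ng of 17 beta-estradiol, the main ovarian estrogen, in 0.02 ml corn oil; and mice fed 1500 ppm genistein (an isoflavone of soy and a ligand of estrogen receptors) in the diet. Estradiol and genistein groups were sampled at days 2, 3 and 6. The controls were sampled at day 0 and not injected, so treatment cannot be told apart from the days that had passed in any comparison with them, nor, for estradiol, from the injections and the oil. Route and vehicle also separate estradiol from genistein. The pools are labelled as independent biological replicates, and p-values here measure the spread between 2 pools a group, a number that limits the precision.

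Signals were deposited at a 2%-trimmed mean of 150.04 on 11 arrays, but at 223.4 on estradiol day 2 replicate 2 and at 300.3 and 334.6 on the 2 arrays of estradiol day 3. All values below are after rescaling every array to 150.04, and differences are given as log2(signal + 16) with the SE of limma unless a signal is named. Differences are between arrays for the same probe set, and signals of different genes are not compared. Thymocyte genes passed the filter on low signal, with mean signals of 2401 for Rag1, 807 for Cd4 and 1836 for Cd8a. The ratio of 3' to 5' signal of the Gapdh controls, a sign of RNA integrity, was 1.50 on the first genistein array of day 6, 1.27 on the first estradiol array of day 2 and between 0.867 and 1.11 on the other arrays.

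The proteasome consists of a barrel, the 20S core, and caps that feed it. In the core, rings of alpha subunits (Psma genes) gate the entry and rings of beta subunits (Psmb genes) hold the active sites, with Psmb5, Psmb6 and Psmb7 as the catalytic members. The 19S cap has a base of ATPases (Psmc genes) and scaffold subunits that unfolds substrates, and a lid (most Psmd genes) that includes the enzyme removing ubiquitin, while Psmd5, Psmd9 and Psmd10 are chaperones of base assembly. Psme genes encode alternative activators that open the core without ubiquitin. In the thymus the proteasome also makes the peptides on which developing T cells are selected, and cells that lose proteasome activity raise these genes through the transcription factor Nfe2l1, which binds antioxidant response elements in their promoters.

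Stretches upstream of the start are shown for 4 members named in the results below. Psma7 had the largest difference after estradiol, Psmb5 and Psmb6 are catalytic subunits whose promoter holds an antioxidant response element core, and Psmd8 was the member whose estradiol arrays all lay below its genistein arrays. The sequences are the 250 bases before the annotated start in RefSeq, build GRCm38.p6, written 5' to 3' on the strand of the gene. They lie at chr2:180042465-180042714 (minus strand) for Psma7, chr14:54617996-54618245 (minus strand) for Psmb5, chr11:70525107-70525356 (plus strand) for Psmb6 and chr7:29180674-29180923 (minus strand) for Psmd8. Capitals mark a CCAAT box (CCAAT) or an antioxidant response element core (TGACNNNGC), searched on both strands.
Psma7: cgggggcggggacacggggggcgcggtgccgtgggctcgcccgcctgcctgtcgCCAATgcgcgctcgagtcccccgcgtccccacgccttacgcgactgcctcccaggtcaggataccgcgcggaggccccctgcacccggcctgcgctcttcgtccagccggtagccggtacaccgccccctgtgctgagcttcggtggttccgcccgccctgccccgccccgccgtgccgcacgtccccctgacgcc
Psmb5: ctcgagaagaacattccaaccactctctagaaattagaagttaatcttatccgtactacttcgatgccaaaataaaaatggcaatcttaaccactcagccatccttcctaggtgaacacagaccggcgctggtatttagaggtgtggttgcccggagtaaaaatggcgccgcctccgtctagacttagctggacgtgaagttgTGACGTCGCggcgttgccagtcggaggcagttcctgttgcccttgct
Psmb6: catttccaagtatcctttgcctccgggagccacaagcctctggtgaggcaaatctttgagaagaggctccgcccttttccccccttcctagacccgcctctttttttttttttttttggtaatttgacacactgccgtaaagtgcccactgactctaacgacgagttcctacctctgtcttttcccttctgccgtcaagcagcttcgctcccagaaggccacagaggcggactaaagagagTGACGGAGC
Psmd8: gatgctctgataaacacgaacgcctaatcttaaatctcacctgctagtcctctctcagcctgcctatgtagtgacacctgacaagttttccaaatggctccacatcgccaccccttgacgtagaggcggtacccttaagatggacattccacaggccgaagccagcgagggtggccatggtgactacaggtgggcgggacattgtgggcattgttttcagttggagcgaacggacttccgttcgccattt
The capitals in Psmb5 begin 47 bases and those in Psmb6 begin 9 bases before the start, and the CCAAT box of Psma7 begins 196 bases before it. Psmd8 held neither motif in this window. Of the 38 genes, 31 had a promoter in the RefSeq table. Psmb7, the remaining catalytic subunit, was not among the 31, so its promoter was not searched. The antioxidant response element core occurred in 5 of the 31 (16.1%; Psmb5, Psmb6, Psmc6, Psmd12 and Psmd9), beside 10.2% of all 27018 promoters of the same length. A CCAAT box occurred in 12 of the 31 (38.7%, beside 34.5% of all promoters), a GC box (GGGCGG) in 19 (61.3%, beside 32.9%), and a TATA box (TATAAA) in 3 (9.68%, beside 13.0%). The estrogen response element, the palindrome bound by estrogen receptors (GGTCA, any 3 bases, TGACC), occurred in 0 of the 31 and in 0.0629% of all promoters. These letter matches describe the windows and show no binding. Their relation to the signals was not tested.

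No proteasome probe set passed an adjusted p under 0.05 in any of the 15 comparisons and F tests made with limma. For estradiol against control over the mean of the 3 days, 0 of 58 proteasome probe sets were called, beside 0.604% of all 13575 probe sets tested. At an unadjusted p under 0.05, limma gave 2 of the 58 as higher (3.45%) and 9 as lower (15.5%), beside 9.05% and 5.79% of all probe sets. For genistein against control, 0 of 58 were called, beside 0.0368% of all, and at an unadjusted p under 0.05, 2 were higher and 7 lower (12.1%), beside 6.19% and 4.91% of all. For estradiol against genistein, 0 of 58 were called, beside 1.41% of all, and at an unadjusted p under 0.05, 4 were higher (6.9%) and 9 lower (15.5%), beside 9.31% and 7.8% of all.

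The differences of most members were small and more often negative than positive. With 1 probe set for each of the 37 genes, the one with the highest mean, the median log2 difference between estradiol and control was -0.13, with a range from -0.80 (Psma7) to 0.47 (Psmd2). It was negative for 27 genes and positive for 10. The median over all 8214 genes tested was 0.0087. Between genistein and control the median over proteasome genes was -0.08, with 24 negative and 13 positive, against 0.02 over all genes. Between estradiol and genistein the median was -0.07, again with 24 negative and 13 positive, against -0.01 over all genes. Counted over probe sets, 44 of 58 (75.9%) had a negative estradiol-to-control difference, beside 49.1% of all probe sets, and for genistein 38 of 58 (65.5%), beside 47.8%. Between the treatments, 34 of 58 (58.6%) were negative, beside 50.4%. The comparisons with control share the same 2 control arrays. In whole tissue at a common scale, fewer cells of a type and less RNA per cell cannot be told apart. The sign of the estradiol medians differed with the scaling. With values as deposited the median was 0.32 against control, under a median over all probe sets of 0.43, and 0.38 against genistein, under 0.42. With the arrays of another scale as a term in the fit, the median against control was -0.01. Only estradiol day 2 had arrays at both scales, so that term rested on the gap between its 2 arrays. The same gap was then taken from both day 3 arrays, so this fit cannot tell scale from estradiol at day 3.

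**Figure D1:**
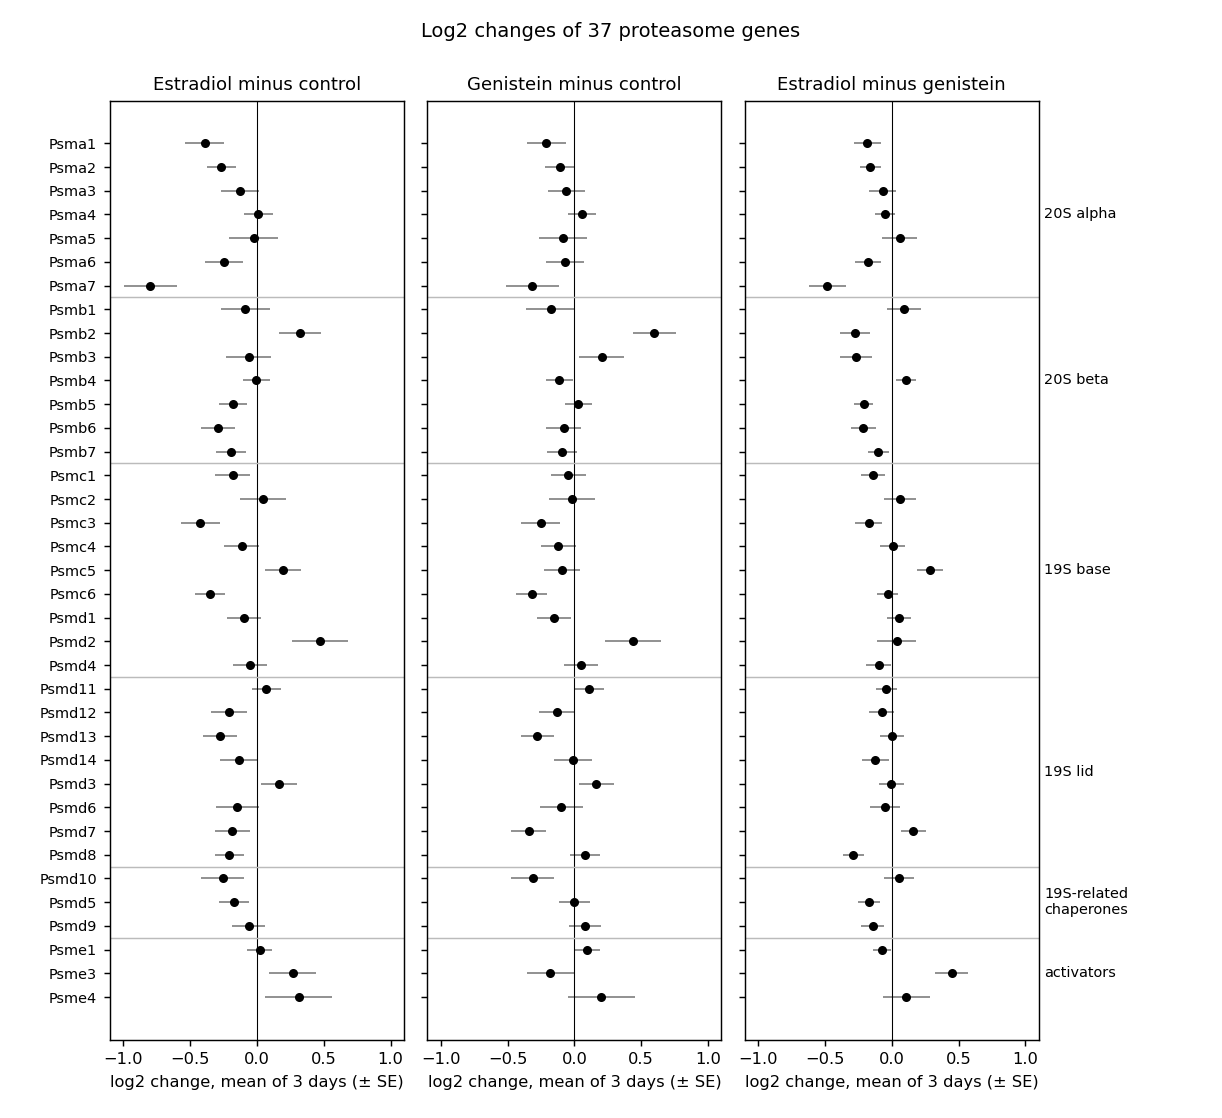
Log2 difference (horizontal axis, mean of days 2, 3 and 6, points, with SE of limma as bars) of 37 proteasome genes in 3 comparisons, 1 probe set a gene, ordered by class. Psma7 stands farthest to the left after estradiol at -0.80, Psmb2 farthest to the right after genistein at 0.60, and the median gene at -0.13 and -0.08.

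The spread of the proteasome genes was close to that of the array's other genes. The pooled SD between the 2 arrays of a group had a median of 0.160 over the 37 genes and 0.182 over all genes (log2). The range of the 7 group means had a median of 0.371, against 0.422. The mean deviation of the 37 genes from their own means over all arrays lay between -0.0995 on the second estradiol array of day 2 and 0.12 on the first genistein array of day 3, a range of 0.22. That score was 0.0516 and 0.0689 on the control arrays, from -0.0995 to 0.0843 on the 6 estradiol arrays and from -0.0741 to 0.12 on the 6 genistein arrays, so the 3 treatments overlapped. The highest scores fell on the arrays with the highest Gapdh ratios. These were genistein day 3 replicate 1 (0.12, ratio 1.11), estradiol day 2 replicate 1 (0.0843, 1.27) and genistein day 6 replicate 1 (0.0767, 1.50). The next highest ratio, 1.04 on genistein day 6 replicate 2, went with a score of -0.0741. The relation of ratio and score was not tested.

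**Figure D2:**
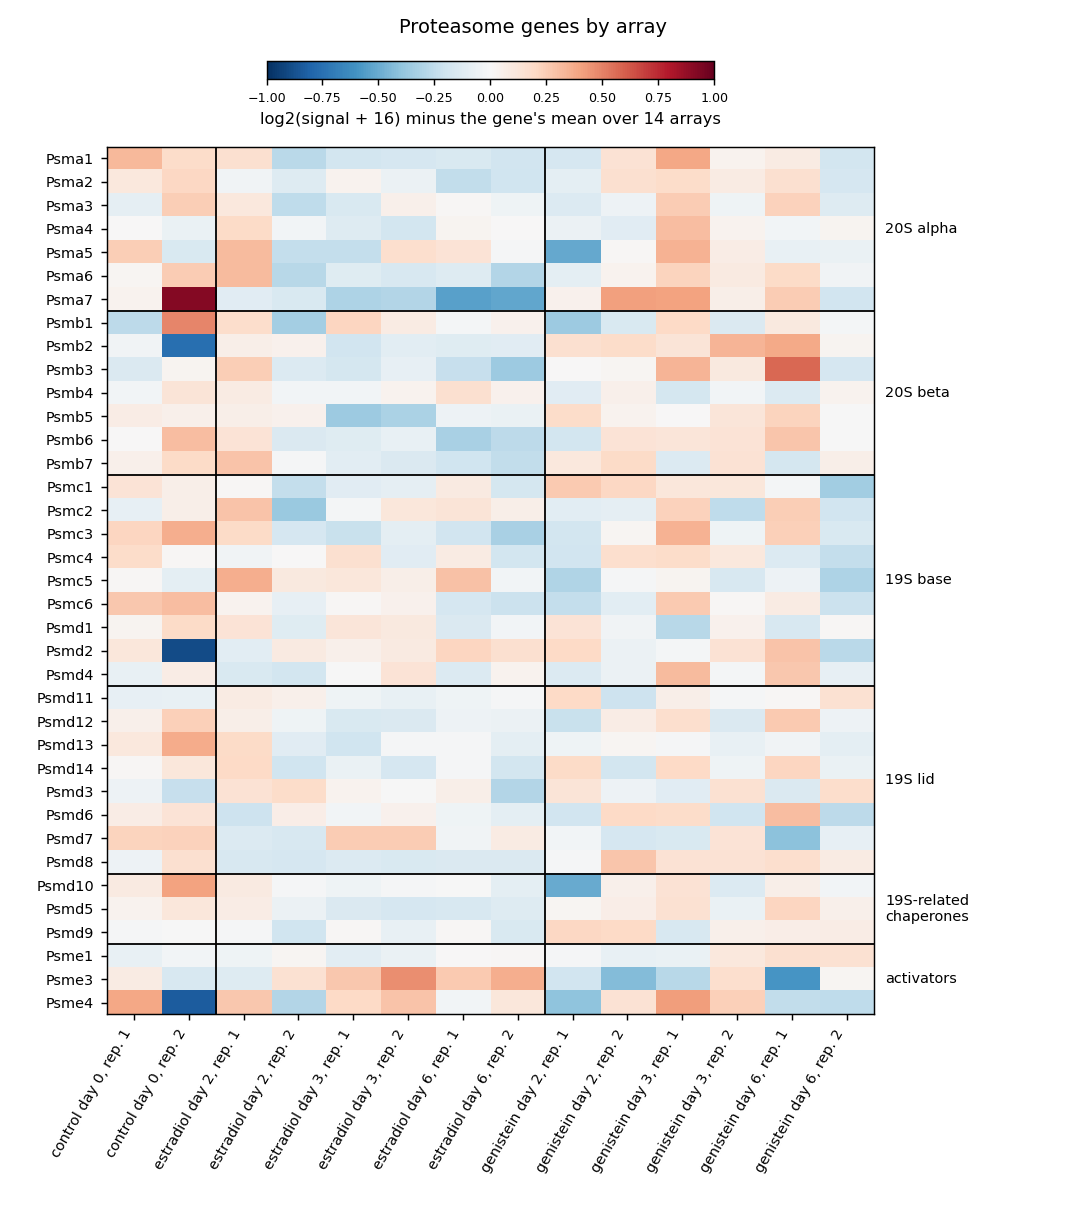
Deviation of log2(signal + 16) from the gene's own mean (colour, blue below and red above) for 37 proteasome genes (rows) on 14 arrays (columns), with lines between classes and treatments. Control replicate 2 carries the darkest cells, at Psma7, Psmb2, Psmd2 and Psme4, and most other cells are pale.

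The classes differed in their medians. After estradiol the median log2 difference from control was -0.25 over 7 alpha genes, -0.09 over 7 beta genes, -0.10 over 9 base genes, -0.17 over 8 lid genes, -0.17 over the 3 chaperones and 0.27 over the 3 activators. After genistein it was -0.08 over alpha genes, -0.08 over beta genes, -0.09 over base genes, -0.05 over lid genes, 0.0001 over chaperones and 0.09 over activators. Over the alpha genes the mean deviation was 0.0931 and 0.229 on the control arrays, and 0.134, -0.194, -0.157, -0.0912, -0.129 and -0.179 on the estradiol arrays in order of day. Every estradiol array but day 2 replicate 1, which lay between the controls, was below both. The Gapdh ratio of day 2 replicate 1 was 1.27, the highest of the estradiol arrays. Genistein arrays spanned -0.147 to 0.299 for the alpha genes and overlapped both other treatments. The activator genes gave 0.133 and -0.337 on the 2 control arrays, a gap wider than the range of the 6 estradiol arrays, -0.0407 to 0.229. The activator median after estradiol was the value of the brighter Psme3 probe set, and the dimmer one differed from control by -0.06. No test was made of a class.

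**Figure D3:**
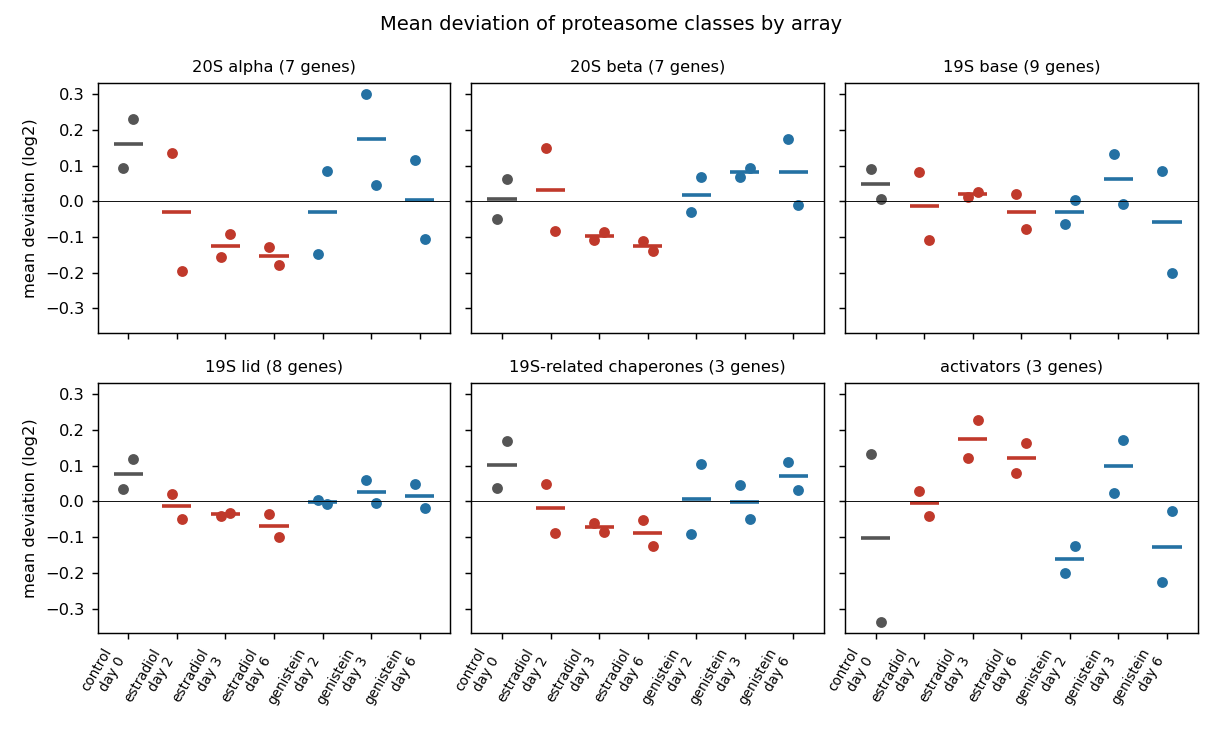
Mean deviation (log2, vertical axis) of the genes of each of 6 proteasome classes on every array (points) by group (horizontal axis; lines are means of 2 arrays). The 20S alpha panel has its controls at 0.0931 and 0.229 and its estradiol day 6 arrays at -0.129 and -0.179, and the activator panel has controls 0.133 and -0.337.

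Among the alpha subunits, Psma7 had the largest difference of any member after estradiol. The brighter of its probe sets had control signals of 555 and 1037. Its estradiol signals were 499.6 and 486 (day 2), 435 and 439 (day 3), and 366 and 372 (day 6), and its genistein signals 559 and 723, 719 and 563, and 648 and 472. All estradiol arrays lay below both controls and were lower at each later day, and the genistein arrays overlapped with both. The log2 difference between estradiol and control was -0.80 ± 0.197 (SE; 0.575-fold), with an adjusted p of 0.0853 by limma, and at day 6 it was -1.01 (adjusted p = 0.0773). Against genistein it was -0.48 ± 0.139 (limma adjusted p = 0.100), and with only the estradiol and genistein arrays in the fit the same difference had an adjusted p of 0.041. The difference rested in size on the controls, at -1.24 without control replicate 1 (limma adjusted p = 0.00645) and -0.36 without control replicate 2. The dimmer Psma7 probe set had control signals of 533 and 652 and estradiol signals between 408 and 516. Its estradiol arrays also lay below both controls, with a log2 difference of -0.30 (limma adjusted p = 0.416), but it differed from genistein by -0.01.

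Psma1, another subunit of the alpha ring, had control signals of 749 and 678, estradiol signals of 664, 489, 520.0, 527, 534 and 518 in order of day, and genistein signals from 521 to 779.8. The estradiol arrays were all below the controls, and the log2 difference was -0.39 ± 0.145 (limma adjusted p = 0.226). Psma2, whose controls read 1456 and 1565, read 1134 to 1383 on the estradiol arrays and 1201 to 1532 on the genistein arrays. Its estradiol arrays did not overlap with the controls either, at a log2 difference of -0.27 (limma adjusted p = 0.285), and it differed from genistein by -0.16 (limma adjusted p = 0.32).

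Of the catalytic beta subunits, Psmb5 carries the chymotrypsin-like site, the target of bortezomib. Its control arrays read 816 and 799.5. Estradiol arrays read 803 and 796 (day 2), 597 and 618 (day 3), and 744 and 736 (day 6), and genistein arrays 881, 792, 776, 839.7, 901 and 769 in order of day. The 2 arrays of estradiol day 3 were the lowest of the 14, and both had been deposited at another scale. The day 3 log2 difference from control was -0.40 ± 0.125 (limma adjusted p = 0.304), and limma's F test over the estradiol days gave an adjusted p of 0.665. Over the mean of days the difference was -0.18 from control and -0.21 ± 0.072 from genistein (limma adjusted p = 0.155).

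Psmb6, the caspase-like subunit, had control signals of 723 and 896, estradiol signals of 790.4 and 649, 659.9 and 684, and 571 and 597 at days 2, 3 and 6, and genistein signals from 629.9 to 876. The day 6 estradiol arrays were the lowest, and day 2 overlapped with the controls. The log2 difference from control was -0.29 ± 0.131 (limma adjusted p = 0.322), and lay between -0.44 and -0.14 with 1 control array left out. Psmb7, the trypsin-like subunit, had control signals of 1778 and 1961, estradiol signals of 2095 and 1704, 1592 and 1552, and 1493 and 1441 at days 2, 3 and 6, and genistein signals from 1516 to 1963. Estradiol arrays of days 3 and 6 lay below the controls and those of day 2 spread around them, and the log2 difference over the days was -0.19 ± 0.113 (limma adjusted p = 0.458). In limma's F test over the estradiol days, Psmb7 had an adjusted p of 0.729, and in that for the interaction, Psmb6 had one of 1.00.

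Psmb2, a structural beta subunit, went the other way in its values. Its controls read 573 and 343, its estradiol arrays 614, 606, 514, 545, 541 and 542 in order of day, and its genistein arrays 659, 671, 644, 750.2, 769.7 and 601. All genistein arrays lay above both controls, with a log2 difference of 0.60 ± 0.16 (limma adjusted p = 0.293). The estradiol arrays overlapped with the controls, at 0.32 (limma adjusted p = 0.368). Both differences depended on the controls. Without control replicate 2 the genistein difference was 0.24 and the estradiol difference -0.04, and without control replicate 1 they were 0.96 and 0.68 (limma adjusted p = 0.00957 and 0.0309).

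**Figure D4:**
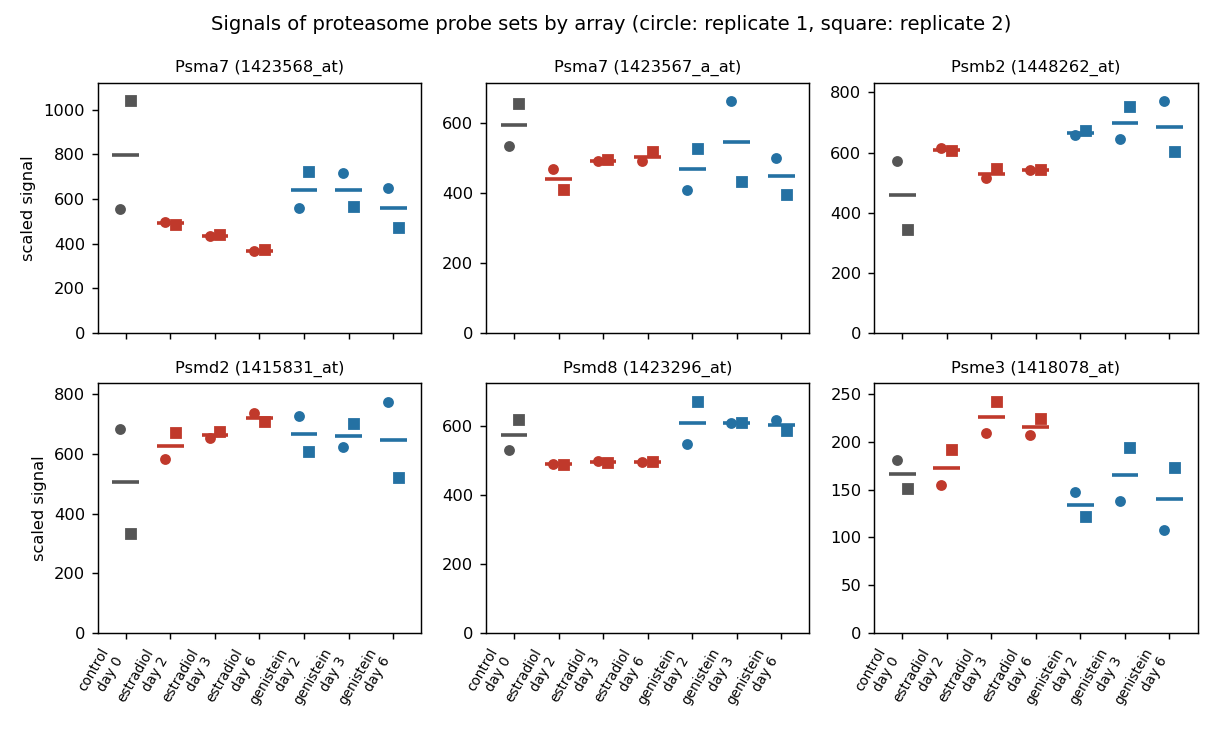
Scaled signal (vertical axis, from 0) of 6 proteasome probe sets on each array by group, with circles for replicate 1, squares for replicate 2 and lines for the mean of 2 arrays. Psma7 (brighter probe set, first panel) reads 366 and 372 at estradiol day 6 against 555 and 1037 in controls, and Psmd8 reads 489 to 499 on the estradiol arrays against 547 to 671 on the genistein arrays.

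In the 19S base, the ATPase gene Psmc6 lay below control in both treatments. Its signals were 822 and 846 in controls, 697, 640.4, 687, 699.9, 605 and 583 on the estradiol arrays in order of day, and 574, 632, 820.4, 687, 721 and 586 on the genistein arrays. No treated array reached the lower control, and the closest was genistein day 3 replicate 1. The log2 difference was -0.35 ± 0.114 for estradiol (limma adjusted p = 0.174) and -0.32 for genistein (limma adjusted p = 0.349), and the treatments differed by -0.03. Another Psmc6 probe set differed by -0.04 after estradiol and -0.19 after genistein.

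The ATPase gene Psmc3 read 774 and 857 in controls, 528 to 758 on the estradiol arrays and 582 to 849 on the genistein arrays. Its estradiol arrays lay below both controls, at a log2 difference of -0.43 ± 0.146 (limma adjusted p = 0.195), and its genistein arrays overlapped with them. Psmc5, a further ATPase gene of the same ring, had control signals of 399 and 369, estradiol signals from 389.5 to 514 and genistein signals from 317 to 403. Its log2 difference between estradiol and genistein was 0.29 ± 0.0965 (limma adjusted p = 0.149), opposite in sign to that of Psma7, and the arrays overlapped only between 389.5 and 403.

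Psmc1, the ATPase gene with the smallest p over the days of genistein, read 329, 317, 296, 296, 268 and 210.5 on the genistein arrays in order of day. These values were lower at each later day, with an adjusted p of 0.857 in limma's F test. The next were Psmc6 and Psma5, an alpha subunit, both with an adjusted p of 0.872 in that test. Psmd2, the scaffold subunit that receives ubiquitin receptors, was chosen after its values were seen. Its controls of 682 and 331 enclosed most treated signals, which ran from 519 to 773. Its log2 difference after estradiol was 0.47 (limma adjusted p = 0.316), and it was 0.98 without control replicate 1.

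Probe sets of the same base gene could disagree, as did the following genes, also chosen after their values were seen. The dimmer Psmc2 probe set read 866 and 913 in controls and 551 to 729.6 on the genistein arrays, at a log2 difference of -0.50 (limma adjusted p = 0.236). The brighter Psmc2 probe set differed by -0.02. The dimmer Psmc4 probe set read 138 to 410.4 after estradiol and 145 to 303 after genistein, with both day 2 replicate 2 arrays far below their partners. Its log2 difference between the treatments was 0.55 (limma adjusted p = 0.149), and 0.76 without estradiol day 2 replicate 2 (limma adjusted p = 0.0175), while the brighter Psmc4 probe set differed by 0.01. Among the 16 genes with more than 1 tested probe set, the probe sets had the same sign in 12 genes for estradiol against control, in 9 for genistein against control and in 7 for estradiol against genistein.

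In the 19S lid, Psmd8 separated the treatments most cleanly. Its estradiol signals were 491, 489, 499, 494, 496 and 496 in order of day, its genistein signals 547, 671, 611, 611, 619.5 and 586, and its controls 531 and 617. All 6 estradiol arrays lay below all genistein and control arrays, and within the estradiol arrays the spread was narrow. The log2 difference between estradiol and genistein was -0.29 ± 0.0779 (limma adjusted p = 0.0832), and from control it was -0.21 for estradiol (-0.31 to -0.10 with 1 control array left out) and 0.08 for genistein. It was the 1 of 58 proteasome probe sets (1.72%) whose estradiol arrays all lay below the genistein arrays, beside 0.413% of all probe sets, and 0 lay all above, beside 0.965%. A count of 1 probe set is too small to read as a trait of the members.

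Psmd7, a lid subunit paired with the deubiquitinase Psmd14, had control signals of 165 and 165, genistein signals of 136, 122, 124, 154, 100.4 and 129.9, and estradiol signals of 125, 122, 169, 169, 135 and 148. All genistein arrays lay below the controls, with a log2 difference of -0.34 ± 0.133 (limma adjusted p = 0.384), while the estradiol arrays of day 3 lay above them (limma's F test over the estradiol days, adjusted p = 0.747). Psmd13, another lid subunit, read 316 and 383 in controls, 253 to 337 after estradiol and 273 to 296 after genistein. Its log2 difference was -0.28 after either treatment (limma adjusted p = 0.322 and 0.44), and its other probe set gave -0.24 and -0.09. With 1 control array left out, the estradiol difference of the first lay between -0.41 and -0.15.

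The assembly chaperones gave small differences. Psmd10, also known as gankyrin, read 109 and 139 in controls, 93.9 to 109 after estradiol and 67.1 to 114 after genistein, with log2 differences of -0.26 and -0.31 (limma adjusted p = 0.487 and 0.493). With 1 control array left out these Psmd10 differences lay between -0.41 and -0.10 for estradiol and between -0.47 and -0.15 for genistein. Psmd5 read 283 and 299.9 in controls and 243 to 291 after estradiol, at -0.17 (limma adjusted p = 0.511), and its difference after genistein was 0.0001. Psmd9 differed by -0.06 after estradiol, 0.08 after genistein and -0.14 between them (limma adjusted p = 0.427), and its other probe set differed by -0.05, 0.24 and -0.29.

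Of the activators, Psme1, the alpha subunit of the interferon-inducible 11S ring, was the steadiest. Its signals were 749.6 and 774 in controls, 733 to 799.6 on the estradiol arrays and 747 to 883 on the genistein arrays. The log2 difference was 0.02 for estradiol, with a 95% interval from -0.19 to 0.23, and 0.09 for genistein (limma adjusted p = 0.948 and 0.738). Psme3, the nuclear activator PA28 gamma, read 181 and 151 in controls, 154, 191, 209, 242, 207 and 224 after estradiol and 147, 122, 138, 193, 108 and 173 after genistein. From control, Psme3 differed by 0.27 after estradiol (limma adjusted p = 0.51), and its second probe set by -0.06. Estradiol day 3 and day 6 arrays of the first Psme3 probe set lay above all genistein arrays, and day 2 overlapped. Its log2 difference between estradiol and genistein was 0.45 ± 0.125 (limma adjusted p = 0.0891; 0.0336 without genistein day 6 replicate 2), and the second probe set of Psme3 gave 0.15. Psme4, the nuclear activator PA200, had control signals of 520.0 and 215, with estradiol signals from 318 to 483 and genistein signals from 294 to 531 mostly between them. Its log2 difference after estradiol was 0.31 ± 0.249 (limma adjusted p = 0.592), and -0.30 without control replicate 2. The other 2 probe sets of Psme4 differed by -0.05 and -0.07 after estradiol.

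Across members, 9 of 58 probe sets (15.5%) had all estradiol arrays below both controls, beside 6.96% of all probe sets, and 0 had them above, beside 8.04%. The 9 were both tested probe sets of Psma7 and 1 each of Psma1, Psma2, Psmc2, Psmc3, Psmc6, Psmd6 and Psmd8. For genistein, 4 probe sets (6.9%; Psmc2, Psmc6, Psmd7 and Psmd13) lay below both controls, beside 4.19% of all, and 2 (Psmb1 and Psmb2) above, beside 4.49%. The dimmer probe set of Psmc2 and the brighter tested one of Psmc6 lay below in both treatments. The brighter probe set of Psmc2 overlapped with the controls in both. The Psmb1 probe set above the controls was the dimmer, and the brighter one overlapped with them, at a log2 difference of -0.18.

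The 2 control arrays decided the size of several of these values. They differed by over 0.5 on the log2 scale in 5 of 37 proteasome genes (13.5%), beside 15.5% of all genes, with Psma7, Psmb1, Psmb2, Psmd2 and Psme4 as the 5. Without control replicate 1, limma called 6 proteasome probe sets for estradiol against control (Psmd2, Psma6, Psma7, Psme4, Psmd11 and Psmb2) and 3 for genistein against control (Psmd2, Psmd11 and Psmb2). Without control replicate 2 it called 0 in both, with 1 at an unadjusted p under 0.05 in each. Over all 13575 probe sets the same fits called 569 and 337 without control replicate 1 and 4 and 1 without control replicate 2, where all arrays gave 82 and 5. The members called without control replicate 1 thus stand beside many more calls on the whole array. The lone control array is then assumed to vary like the other groups. In that fit Psmd2 (0.98), Psme4 (0.92), Psmd11 (1.01) and Psmb2 (0.68) were higher after estradiol than in control. Psma6 (-0.57) and Psma7 (-1.24) were lower. After genistein, Psmd2 (0.94), Psmd11 (0.94) and Psmb2 (0.96) were higher. Among the calls without control replicate 1, the Psma6 and Psmd11 probe sets were not the brightest of their genes. With all arrays, the 4 tested Psmd11 probe sets differed by 0.07 to 0.51 after estradiol. The brightest of them gave the 0.07, with control signals of 1097 and 1099.

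Single days gave no call among the members. For estradiol against control 0 of 58 were called at days 2, 3 and 6, beside 0.0884%, 0.0663% and 0.656% of all probe sets, and limma gave 8, 7 and 11 at an unadjusted p under 0.05, beside 12.3%, 10.2% and 14% of all. For genistein against control 0 were called, beside 0.0147%, 0.00737% and 0.00737% of all, with 9, 3 and 8 at an unadjusted p under 0.05 by limma, beside 11.8%, 5.73% and 10.4%. For estradiol against genistein 0 were called, beside 0.081%, 0.0147% and 0.265%, with 5, 5 and 6 at an unadjusted p under 0.05 by limma, beside 6.72%, 6.7% and 13.4%. The median over the 37 genes was -0.10, -0.10 and -0.15 for estradiol against control at days 2, 3 and 6. For genistein against control it was -0.10, -0.02 and -0.06. Between estradiol and genistein it was 0.02 at day 2, with 17 genes negative and 20 positive, and -0.12 on both later days. limma's F tests called 0 members for change across estradiol days, beside 0.0221% of all, and 0 for change across genistein days and for the interaction of treatment and day, beside 0% of all. At an unadjusted p under 0.05 they gave 2, 0 and 2 members, beside 6.92%, 5.79% and 4.24% of all. Psma4, an alpha subunit, had the smallest p of the genes for the interaction, with a limma adjusted p of 1.00.

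Genes around the proteasome were read from lists written for it. Of all probe sets, limma gave 9.05% as higher and 5.79% as lower after estradiol at an unadjusted p under 0.05. The shares were 6.19% and 4.91% after genistein, and 9.31% and 7.8% between the treatments. Of 12 assembly factors and further 19S genes, 11 were tested and 0 were called in the 3 comparisons over the mean of days, with 0 at an unadjusted p under 0.05 by limma in the 2 against control and 2 between the treatments. Their median log2 differences were -0.08 for estradiol, -0.02 for genistein and -0.08 between them. Of 4 genes that control proteasome transcription, 3 were tested and 0 called after estradiol, with 1 at an unadjusted p under 0.05 by limma, at a median of 0.026. Nfe2l1, which encodes that transcription factor, differed by 0.34 after estradiol (limma adjusted p = 0.261). Of 7 genes of ubiquitin shuttles and Vcp, 6 were tested and 0 called, also with 1 at an unadjusted p under 0.05 by limma, at a median of 0.10. Vcp, the ATPase that extracts ubiquitinated proteins for the proteasome, differed by 0.38 (limma adjusted p = 0.209). The immunoproteasome subunits left out of the members differed after estradiol by 0.08 for Psmb8, 0.41 for Psmb9 (limma adjusted p = 0.128) and 0.28 for Psmb10 (limma adjusted p = 0.276), while the catalytic subunits they replace, Psmb5, Psmb6 and Psmb7, differed by -0.18, -0.29 and -0.19. The difference between these gene pairs was not tested.

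Marker genes of other cells were read in the comparison of estradiol with control. Of all probe sets, 0.604% were called there. At an unadjusted p under 0.05 limma gave 9.05% as higher and 5.79% as lower. Of 12 macrophage genes, 11 were tested and 4 were called higher, with a median log2 difference of 0.65. Their mean deviation was -0.37 and -0.34 on the control arrays, 0.09 to 0.32 on the estradiol arrays and -0.25 to 0.05 on the genistein arrays. Of 11 thymic epithelial genes, 10 were tested and 4 were called higher, with a median of 0.48. Their array values were -0.45 to -0.22 in controls, 0.05 to 0.33 after estradiol and -0.19 to 0.05 after genistein. All genistein arrays thus also lay above both controls. Of 10 genes of dividing cells, 9 were tested, 8 were negative, 0 were called and 4 were lower at an unadjusted p under 0.05 by limma, at a median of -0.23, with 0.06 to 0.19 in controls, -0.16 to -0.01 after estradiol and -0.01 to 0.24 after genistein. The 9 tested genes of double-positive thymocytes had a median of -0.02 and 0 calls. Fibroblast genes had a median of 0.54 (0 of 5 called), adipocyte genes 0.51 (1 of 4 called higher) and B cell genes 0.05 (0 of 5 called). Their part in the proteasome values was not tested.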

How the data were processed

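Deposited signal values (intensity) of 14 arrays were used, made with MAS5 5.0, per the submitters' processing notes. No source used here gives the reason for the other scale of 3 arrays. Every array was rescaled to a 2%-trimmed mean of 150.04, 64 control probe sets were removed, 16 was added before the log2, and the lowest 40% by mean were left out, which kept 13575 probe sets. Group means of the 7 groups were fitted with limma 3.58.1 (R 4.3.3; eBayes with intensity trend; 7 residual degrees of freedom), with Benjamini-Hochberg adjustment over all probe sets tested. The script was tested on simulated data.

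Named were the catalytic subunits, Psme1, Psme3 and Psme4, in each other class the 2 genes with the smallest p for estradiol against control and against genistein and the 1 for genistein against control, all over the mean of days, and the 3 of each F test. Where a gene is named alone, the value is that of its probe set with the highest mean. A probe set shared by several genes was not used, which left out that of Psme2. Gene symbols follow the RefSeq gene table where the platform's gene identifier matched it (20364 of 20393 probe sets with a single symbol), and otherwise the platform annotation. No member symbol changed by this. The members and lists were chosen with earlier results of these data known. Same-numbered arrays of different groups were not paired.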

Additional observations from a re-analysis of the deposited data

How the results depend on the processing

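Fits were repeated under 14 other settings and with each of 14 arrays left out. Pseudocount, filter, probe set type, quantile scaling, variance model and Gapdh term left every count of called members at 0. With values as deposited, which carry the other scale of 3 estradiol arrays, the counts were 15 (estradiol against control), 42 (estradiol against genistein), 55 and 55 (the same at day 3), 56 (days of estradiol) and 38 (interaction), the medians 0.32 and 0.38, and the score range 1.20, or 0.41 on median centring. The median against control was -0.014 with the scale as a term, which only the estradiol day 2 arrays could estimate. Estradiol against genistein gave 1 call with only the groups compared (Psma7), and 1 with the scale as a term or those 3 arrays left out (the dimmer Psmc4 probe set). Over all 13575 probe sets the deposited values gave 4298, 9262, 12809, 13034, 12705 and 7951 calls in the same order, and the 3 last settings 199, 32 and 40. The causes of the other scale and of the calls in the 3 last settings were not tested. Leaving out 1 array gave 0 to 6 calls for estradiol against control and 0 to 3 for genistein against control, 0 to 3 and 0 to 2 at each single day, and 0 to 1 for estradiol against genistein (over all probe sets 4 to 569, 1 to 337 and, for estradiol against genistein, 61 to 320), with medians from -0.18 to -0.07, -0.11 to -0.02 and -0.09 to -0.03 and a score range of 0.18 to 0.22. These ranges over all probe sets are those of the mean over days. None is given for the single days, so the single-day calls of members cannot be set beside a share of the whole array. The replicate numbers did not pair the arrays. Deviations of same-numbered arrays correlated between -0.256 and 0.351 over 21 pairs of groups (median -0.00631). With the replicate block every count of called members stayed at 0.

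Values as deposited keep the larger scale of 3 estradiol arrays, which shifts estradiol differences upward. Signs that turned with values as deposited, against control, were those of Psma1 (0.053), Psmb5 (0.27), Psmb6 (0.16), Psmb7 (0.26), Psmc3 (0.021), Psmc6 (0.10), Psmd10 (0.15), Psmd13 (0.16), Psmd5 (0.26) and Psmd8 (0.24). Against genistein they were those of Psma2 (0.29), Psmb2 (0.17), Psmb5 (0.24), Psmb6 (0.24), Psmb7 (0.35), Psmc3 (0.27), Psmd5 (0.26), Psmd8 (0.16), Psmd9 (0.28) and Psme1 (0.37). In both comparisons these values lay under the median over all probe sets with values as deposited, given above. With the scale as a term, Psmb7 (0.047) and Psmc3 (0.0029) turned against genistein and Psme1 (-0.014) against control. Median centring turned Psme1 (-0.025) for estradiol and Psmb5 (-0.0007) for genistein. The Gapdh term turned Psmb5 (-0.0049) and Psme3 (0.018) for genistein. Leaving out 1 array spread genistein differences of Psma7 from -0.76 to 0.13, Psmb5 from -0.0067 to 0.068, Psmb6 from -0.23 to 0.072 and Psme4 from -0.40 to 0.81, and estradiol differences of Psmb2 from -0.036 to 0.68, Psme1 from -0.0035 to 0.042 and Psme4 from -0.30 to 0.92.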
